A study of Mus musculus with 6 samples.

Results

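Transcripts of the proteasome genes were counted in mouse GV (germinal vesicle) oocytes, which are arrested in meiosis with an intact nucleus. The genes were all rows of the count table whose symbol was Psm, a letter from a to g and a number, which gave 48 of 25239 genes. They were chosen by name and not by any measured value. By role they comprised 19 core particle genes (Psma and Psmb), 20 regulatory particle genes (Psmc and Psmd), 4 activator genes (Psme), 1 gene for the regulator PI31 (Psmf1) and 4 core assembly chaperone genes (Psmg).

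The proteasome is the protease that degrades proteins tagged with ubiquitin. Its barrel-shaped core has outer rings of alpha subunits, which gate the entrance, and inner rings of beta subunits, some of which carry the active sites. The regulatory particle caps the core: the ATPases of its base unfold the substrate, and its lid removes the ubiquitin chain. In oocytes the proteasome destroys cyclin B and securin on the way out of meiotic arrest, and later takes part in clearing maternal proteins.

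The study injected cumulus-oocyte complexes, oocytes still surrounded by their follicle cells, from female CD-1 mice, an outbred strain, 4 to 6 weeks old. One group received water and the other a mixture of phthalate metabolites, the breakdown products of plasticizers. After injection both groups were cultured in maturation medium with serum and follicle-stimulating hormone, and oocytes were collected at the GV stage. Which metabolites were injected, and at what dose, is not given in the sources used here. There were 3 Smart-seq3 libraries per group, each titled as an oocyte, and neither animals nor cultures were named, so each group counted as 1 sample. The extraction text can also be read as a single oocyte per group, in which case the 3 libraries would be technical repeats. No test of the treatment was therefore made. Group values below are sums over 3 oocytes or the value of each oocyte, and all intervals cover counting error only, since PCR copies are not independent molecules.

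Each library held between 252267 and 300917 gene counts. Even numbers made up 68.0% to 71.1% of the gene counts from 1 to 20, as when both mates of a read pair are counted, and intervals on counts are then too narrow. All 14 oocyte markers had counts, and 13 of them had counts in every library. Of 15 cumulus and granulosa markers, 9 were at 0 in all libraries, among them Amh, Foxl2 and Star, and the list summed to 0 to 5 counts per water library and 1 to 5 per phthalate library. Of 10 leukocyte markers, 6 were at 0, among them Ptprc and Cd74. Most counts of that list came from H2-Aa, and the others summed to 0 to 3 counts in a library.

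The proteasome genes took 7603 of 854185 counts in the water group, or 0.890% (95% exact binomial interval 0.870 to 0.910). With phthalates it was 7506 of 822225 counts, or 0.913% (0.892 to 0.934). Per oocyte the share was 0.908%, 0.862% and 0.903% with water and 0.851%, 0.998% and 0.878% with phthalates. The groups overlapped, and the lowest and the highest share both belonged to phthalate oocytes. Of the 48 genes, 37 passed the filter on low counts, 5 had counts but did not pass, and 6 had 0 counts in every library.

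A wide contrast within the family lay between the catalytic beta subunits that all cells use and the inducible ones that replace them in immune cells. Psmb5, Psmb6 and Psmb7 are the constitutive catalytic subunits, and Psmb8, Psmb9 and Psmb10 are their counterparts in the immunoproteasome, which interferon induces. The promoters of 2 such pairs are shown because all constitutive members were detected and all inducible members were at 0; Psmb7 was not among the symbols with a promoter sequence, so the pair of Psmb7 and Psmb10 is not shown. The sequences come from the RefSeq table of GRCm38.p6 and hold the 250 bases before the start that the table uses, read 5′ to 3′ on the gene's strand. For Psmb6 the RefSeq gene begins 33 bases upstream of that start, and these bases are not printed, which leaves 217. Capitals mark matches to any of 4 motifs on either strand: CCAAT, TGACNNNGC (a core of the antioxidant response element, which Nfe2l1 and related factors bind), a core of the interferon-stimulated response element (GAAA, any 2 bases, GAAA) and TTCNNNGAA (the gamma-activated site of STAT factors, which reads alike on both strands). Psmb5 lies at chr14:54617996-54618245 (minus strand), Psmb6 at chr11:70525107-70525323 (plus strand), Psmb8 at chr17:34197945-34198194 (plus strand) and Psmb9 at chr17:34187331-34187580 (minus strand).
Psmb5: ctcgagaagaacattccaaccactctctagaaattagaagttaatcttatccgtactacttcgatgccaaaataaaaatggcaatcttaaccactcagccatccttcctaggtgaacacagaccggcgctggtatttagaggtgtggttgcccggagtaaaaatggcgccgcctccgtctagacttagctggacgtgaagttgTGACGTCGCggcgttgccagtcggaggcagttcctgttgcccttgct
Psmb6: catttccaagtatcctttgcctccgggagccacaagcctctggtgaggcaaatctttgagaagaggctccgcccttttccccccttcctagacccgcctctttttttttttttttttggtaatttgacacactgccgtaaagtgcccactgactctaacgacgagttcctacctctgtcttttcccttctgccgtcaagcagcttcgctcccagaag
Psmb8: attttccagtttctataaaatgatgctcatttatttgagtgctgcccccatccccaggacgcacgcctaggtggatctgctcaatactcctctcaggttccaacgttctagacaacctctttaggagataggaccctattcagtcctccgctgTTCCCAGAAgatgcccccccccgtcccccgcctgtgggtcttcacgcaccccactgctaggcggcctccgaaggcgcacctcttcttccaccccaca
Psmb9: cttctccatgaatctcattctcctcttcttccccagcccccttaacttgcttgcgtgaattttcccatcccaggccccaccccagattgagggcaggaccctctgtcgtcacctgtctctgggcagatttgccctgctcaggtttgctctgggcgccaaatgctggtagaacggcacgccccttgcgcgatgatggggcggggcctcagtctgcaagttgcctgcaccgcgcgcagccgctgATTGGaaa

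In the printed windows Psmb5 held TGACNNNGC, Psmb8 held TTCNNNGAA and Psmb9 held CCAAT on the opposite strand, and no match overlapped another. The printed stretch of Psmb6 held none of the 4 motifs, and its match to TGACNNNGC lay in the 33 bases inside the gene. RefSeq promoters were found for 40 of the 48 symbols. Over 300 bases, including 50 bases after the start, TGACNNNGC occurred in 6 of 31 genes that passed the filter and had a promoter (19.4%), against 12.4% of 32851 promoters in the table. The 6 genes were Psmb5, Psmb6, Psmc6, Psmd12, Psmd9 and Psme4. None of the 5 interferon-induced genes (Psmb8, Psmb9, Psmb10, Psme1 and Psme2) held it. CCAAT occurred in 11 of the 31 genes (35.5%) and in 37.4% of all promoters. The interferon-stimulated element occurred in 4 of the 31 genes (12.9%), in Psme1 and in 3.44% of all promoters, and TTCNNNGAA in 2 of the 31 (6.45%), in Psmb8 and in 8.30% of all promoters. A gene with several promoters was counted once if any held the motif, and a match describes letters only.

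Levels of different genes were compared per transcript length, as counts per kilobase of transcript scaled to 1000000 in each library (TPM). Psmb6, the caspase-like catalytic subunit, had 912, 1092 and 1107 TPM with water and 1156, 1195 and 918 TPM with phthalates. Psmb7, the trypsin-like subunit, had 215, 452 and 375 TPM with water and 404, 378 and 365 TPM with phthalates. Psmb5, the chymotrypsin-like subunit, had 82.0, 108 and 132 TPM with water and 101, 144 and 133 TPM with phthalates. The order Psmb6, Psmb7, Psmb5 held in every oocyte, although an assembled core holds the 3 proteins in equal number. Over the 6 libraries Psmb6 was 9.07 times and Psmb7 3.12 times as abundant per length as Psmb5. Of the windows of 75 bases in the Psmb5 transcript, 40.0% also occur in transcripts of 2 other genes, against 24.1% for Psmb7 and 0 for Psmb6. The part of shared sequence in the low Psmb5 count was not tested.

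Psmb8, Psmb9 and Psmb10 had 0 counts in all 6 libraries. A count of 0 allows up to 3 counts in the 6 libraries together. Against that limit Psmb6 was at least 425-fold higher than Psmb9 per length, Psmb7 at least 142-fold higher than Psmb10 and Psmb5 at least 56.4-fold higher than Psmb8. With the longest transcripts the last of these was 47.7-fold. These bounds cover only the counting error of the gene at 0 and take the counts of the detected gene as exact. All bounds of this kind would be smaller if each fragment was counted once per mate. Psmb11, the catalytic subunit of the thymus, had 4 counts in all, 2 in phthalate oocyte 1 and 2 in phthalate oocyte 2. Psma8, the alpha subunit of spermatocytes, also had 0 counts, and its counterpart Psma7 was at least 724-fold higher. The oocyte libraries thus held the transcripts of the constitutive core, and those of the immune, thymic and spermatocyte forms were at or near 0 under either injection. Such low counts were not limited to these forms. The assembly chaperone Psmg2 was also at 0, and the lid gene Psmd13 had 8 counts in all.

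**Figure D1:**
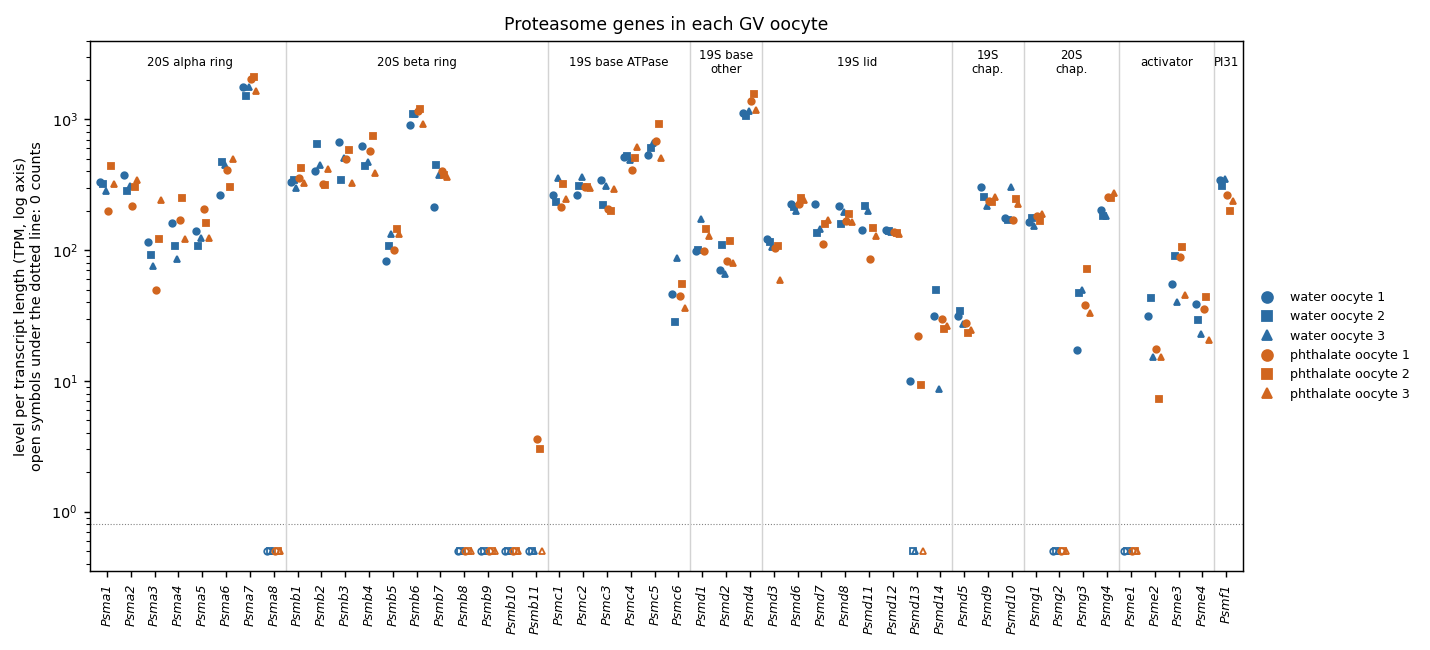
Level of each of the 48 proteasome genes per transcript length (TPM, log axis), grouped by role, with water oocytes in blue, phthalate oocytes in orange and circles, squares and triangles for oocytes 1, 2 and 3. Open symbols under the dotted line stand for 0 counts; Psma8, Psmb8, Psmb9, Psmb10, Psmg2 and Psme1 lie there in all 6 libraries, and Psma7, Psmd4 and Psmb6 lie highest.

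In the alpha ring Psma7 was the most abundant gene of the whole family, with 1767, 1519 and 1764 TPM with water and 2041, 2121 and 1648 TPM with phthalates. It lay above all other proteasome genes in each library. With the lengths used here, the detected alpha gene with the lowest mean over the 6 oocytes was Psma3. It had 116, 92.1 and 75.9 TPM with water and 49.8, 122 and 243 TPM with phthalates. The phthalate oocytes of Psma3 thus spanned a wider range than its water oocytes and enclosed that range. In phthalate oocyte 3 it was above Psma4 and Psma5. Psma1, Psma2 and Psma6 had means over the 6 oocytes from 306 to 399 TPM, and Psma4 and Psma5 of 149 and 144 TPM. Of the transcript windows of Psma5, 39.8% were shared with other genes, of Psma3 21.3% and of Psma4 16.7%, while those of Psma1, Psma6 and Psma7 were not shared. Psma4 and Psma3 also overlap other annotated genes (AY074887 and 3110056K07Rik), and the use of strand in the counting is not given in the sources used here.

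The base of the regulatory particle was led by Psmd4, the ubiquitin receptor Rpn10. It had 1119, 1072 and 1156 TPM with water and 1390, 1567 and 1175 TPM with phthalates. Psmd2, a scaffold of the base, had the lowest mean of the base genes outside the ATPases with these lengths, although Psmd1 was lower in water oocyte 2. Psmd2 was at 70.2, 109 and 65.5 TPM with water and 83.1, 117 and 79.4 TPM with phthalates. Among the ATPases Psmc5 had the highest mean over the 6 oocytes and Psmc6 the lowest, although one copy of each sits in the hexameric ring. Psmc5 had 532, 605 and 666 TPM with water and 683, 920 and 505 TPM with phthalates, and was below Psmc4 (621 TPM) in phthalate oocyte 3. Psmc6 had 46.5, 28.3 and 86.9 TPM with water and 44.7, 54.8 and 36.1 TPM with phthalates. The ATPases thus spanned a 13.2-fold range of mean levels, and the 6 oocytes of Psmc6 all lay below the 6 of each other ATPase.

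The lid genes were lower than Psmc5 and Psmd4 and, apart from Psmd13 and Psmd14, more alike. Psmd6 had the highest mean over the 6 oocytes with the lengths used here, with 225, 214 and 198 TPM with water and 227, 251 and 242 TPM with phthalates, but Psmd11 was above it in water oocytes 2 and 3 (217 and 200.4 TPM). Psmd3, Psmd7, Psmd8, Psmd11 and Psmd12 had means from 102 to 182 TPM. Psmd14, the enzyme that cleaves the ubiquitin chain from the substrate, had only 7, 12 and 2 counts with water and 6, 6 and 6 with phthalates, and did not pass the filter. Psmd13 had 2, 0 and 0 counts with water and 4, 2 and 0 with phthalates. Per length, Psmd12 was 21.0 times as abundant as Psmd13, and Psmd7, the partner of Psmd14 in a heterodimer, 5.52 times as abundant as Psmd14. None of the Psmd14 windows is shared with another transcript. In Psmd13 14.0% are, all with its neighbour Sirt3, and it overlaps Gm15542.

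The 14 core genes that passed the filter had a median level of 356 TPM, from 116 to 1810 TPM. The 18 regulatory particle genes that passed had a median of 199 TPM, from 28.2 to 1246 TPM. These ranges overlapped over most of their length. Among the chaperones of base assembly, Psmd9 had 302, 255 and 216 TPM with water and 239.7, 236 and 254 TPM with phthalates. Psmd5, another base chaperone, had the lowest mean over the 6 oocytes of the genes that passed the filter, with the lengths used here. It was at 31.5, 34.5 and 27.4 TPM with water and 28.0, 23.4 and 24.5 TPM with phthalates. The activator Psme4 was lower than Psmd5 in water oocytes 2 and 3 and phthalate oocyte 3, and Psmc6 in water oocyte 2. Psmd10, the third base chaperone, known as gankyrin, had a mean of 215 TPM.

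The chaperones of core assembly act in pairs, and the transcripts of each pair were unequal. Psmg1 had 22, 26 and 21 counts with water and 22, 24 and 26 with phthalates. Its partner Psmg2 had 0 counts in all 6 libraries, which put Psmg1 at least 59.9-fold higher per length, or 58.5-fold with the longest transcripts. Psmg4 was the highest of the group, with 202, 184 and 182 TPM with water and 254, 250.4 and 274 TPM with phthalates. Its partner Psmg3 was the lowest one detected, with 2, 6 and 6 counts with water and 4, 9 and 4 with phthalates, and did not pass the filter. No window of the Psmg2 transcript is shared with another gene, and RefSeq places no other gene over it. Why it read 0 was not tested.

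Activators open the core without the regulatory particle. Psme1 and Psme2 form the interferon-induced ring of the cytoplasm, Psme3 forms a nuclear ring, and Psme4 is the large activator PA200. Psme1 had 0 counts in every library. Psme2 had 4, 6 and 2 counts with water and 2, 1 and 2 with phthalates, and 51.7% of its windows are shared with its copy Psme2b, so its counts are uncertain. Psme3 was the highest activator with the lengths used here, at 54.6, 90.1 and 40.2 TPM with water and 89.4, 106 and 45.4 TPM in the phthalate oocytes. Psme4 had 38.4, 29.2 and 22.7 TPM with water and 35.5, 43.7 and 20.7 TPM with phthalates. In both genes the third oocyte of each group was the lowest, and the groups overlapped.

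To compare these transcripts between the groups, counts were summed over the oocytes of a group and scaled by group totals with TMM factors. They were expressed as a log2 ratio, positive where phthalates were higher. The summed alpha ring was at 2130, 1914 and 2024 counts per 1000000 (CPM) with water and 1952, 2344 and 2467 CPM with phthalates, a log2 ratio of 0.16 (95% counting interval 0.065 to 0.26), or 0.11 (-0.019 to 0.24) without Psma7. The beta ring was at 1673, 1817 and 1724 CPM with water and 1739, 1992 and 1677 CPM with phthalates, a log2 ratio of 0.060 (-0.045 to 0.16). For the base the values were 2572, 2613 and 3015 CPM against 2605, 3235 and 3004 CPM, a log2 ratio of 0.12 (0.034 to 0.20), which was 0.037 without phthalate oocyte 2 and 0.026 (-0.074 to 0.13) without Psmd4. In these 3 groups of genes the oocytes of the treatments overlapped.

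In the lid all phthalate oocytes lay below all water oocytes, at 993, 970.5 and 924 CPM with water and 754, 905 and 907 CPM with phthalates. Its log2 ratio was -0.17 (-0.31 to -0.019). Library totals without TMM factors made the groups overlap (1024, 960.4 and 923 CPM against 773, 925 and 848 CPM), and without Psmd11 the log2 ratio of the lid was -0.058. The assembly chaperones of core and base together had 748, 719 and 729.9 CPM with water and 661, 723 and 825 CPM with phthalates, a log2 ratio of 0.0065 (-0.16 to 0.17). The core chaperones alone had 140.3, 158 and 145 CPM with water and 166, 176 and 198 CPM with phthalates, without overlap, a log2 ratio of 0.28 whose interval included 0 (-0.069 to 0.64). The base chaperones alone had 608, 561 and 585 CPM against 495, 547 and 626 CPM, with overlap, a log2 ratio of -0.073 (-0.26 to 0.11). The activators had 219, 249 and 141 CPM against 244, 295 and 156 CPM, a log2 ratio of 0.21 (-0.097 to 0.51), and the groups overlapped. It was -0.028 without phthalate oocyte 2 and 0.0025 without water oocyte 3. All proteasome genes together had a log2 ratio of 0.054 (0.0074 to 0.10), which was -0.0020 without Psma7 and Psmd4, the 2 most abundant genes. The intervals of these summed sets were not taken on read pairs, which would widen them. This holds also for the alpha ring, the base, the lid and all genes together, whose intervals do not include 0.

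The ratio of regulatory to core particle counts needs no scaling between libraries. It was 1.10, 1.11 and 1.21 with water and 1.04, 1.08 and 1.09 in the phthalate oocytes. Every phthalate value was below every water value, but the nearest pair, water oocyte 1 and phthalate oocyte 3, differed only in the third decimal (1.097 and 1.095). In the sums the ratio was 1.14 with water and 1.07 with phthalates, a quotient of 0.944. Without water oocyte 3 the quotient was 0.973. Leaving out Psmd4 and Psma7 gave 1.19, 1.17 and 1.33 against 1.11, 1.13 and 1.1504, a quotient of 0.920. The regulatory sum leaves out the subunits Adrm1 and Sem1, whose symbols do not begin with Psm. Their log2 ratios were 0.38 (0.082 to 0.67) and -0.047 (-0.39 to 0.29), and a particle ratio with them is not given here. The sum includes Psmd5, Psmd9 and Psmd10, the chaperones of base assembly, which are no part of the finished particle. Without these 3 genes the ratio was 0.938, 0.960 and 1.05 with water against 0.910, 0.955 and 0.944, and the groups overlapped through water oocyte 1, with a quotient of 0.955. Both of these sets were chosen after seeing the data. By gene, 11 of the 14 core genes that passed had a ratio above 0 and 3 below, and 7 of the 18 regulatory particle genes had one above 0 and 11 below, beside 2377 above and 2267 below over all 4644 genes that passed. The median log2 ratio was 0.16 for the core genes and -0.048 for the regulatory genes. Without the base chaperones the regulatory counts were 6 above and 9 below, with a median of -0.028.

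**Figure D2:**
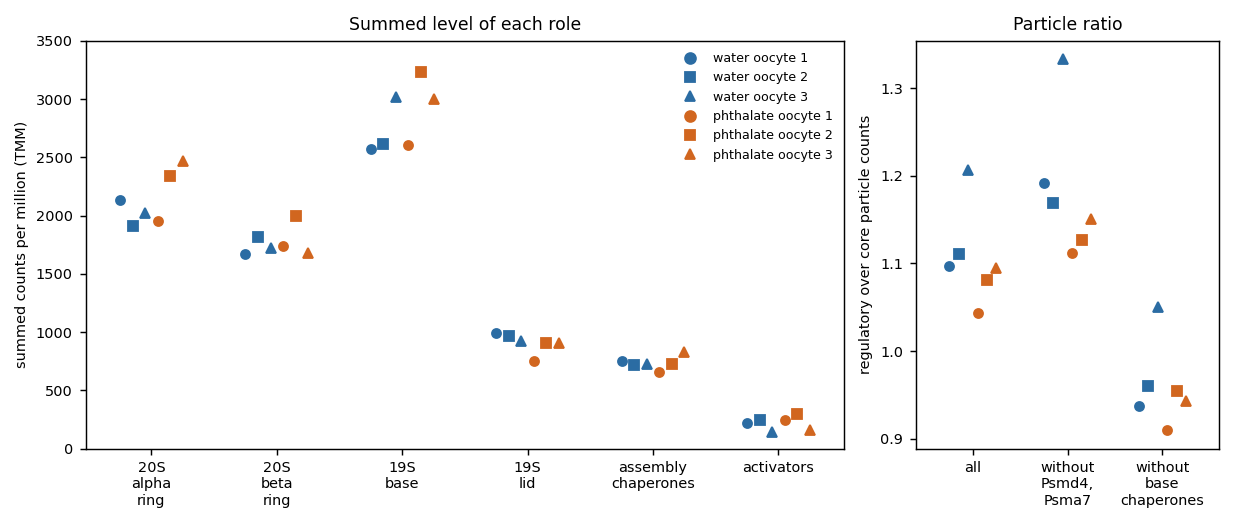
Left, summed CPM of each role in each oocyte; right, regulatory over core particle counts in each oocyte, for all genes, without Psmd4 and Psma7, and without the base assembly chaperones (the right axis does not start at 0). Blue is water, orange is phthalate, and circles, squares and triangles are oocytes 1, 2 and 3. The lid and the first 2 particle ratios are lower in all phthalate oocytes than in all water oocytes, by small margins; without the base chaperones the groups overlap.

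Single genes were spread around a ratio near 0. The median log2 ratio of the 37 proteasome genes that passed was 0.038, from -0.60 to 0.64, beside 0.0089 over all 4644 genes that passed. At least 1.5-fold higher in the phthalate group were 2 of the 37, beside 6.96% of the 4644 genes, and at least 1.5-fold lower was 1 of the 37, beside 8.14%. Low counts widen such ratios. Over the 2784 genes whose mean count reached 20 the shares were 4.02% higher and 4.09% lower, and 33 proteasome genes reached that count, including the same 3. The 3 phthalate oocytes all lay above the 3 water oocytes in 3 of the 37 genes, beside 5.15% of the 4644 genes, and all below in 3, beside 5.00%. From that mean count upwards these shares were 5.42% and 4.81%, with 2 proteasome genes in each direction. None of the 37 was both past 1.5-fold and without overlap, a count for which no share over all genes is given here. The other counts were close to the shares over all genes, and nothing about the proteasome genes is read from any of these counts.

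**Figure D3:**
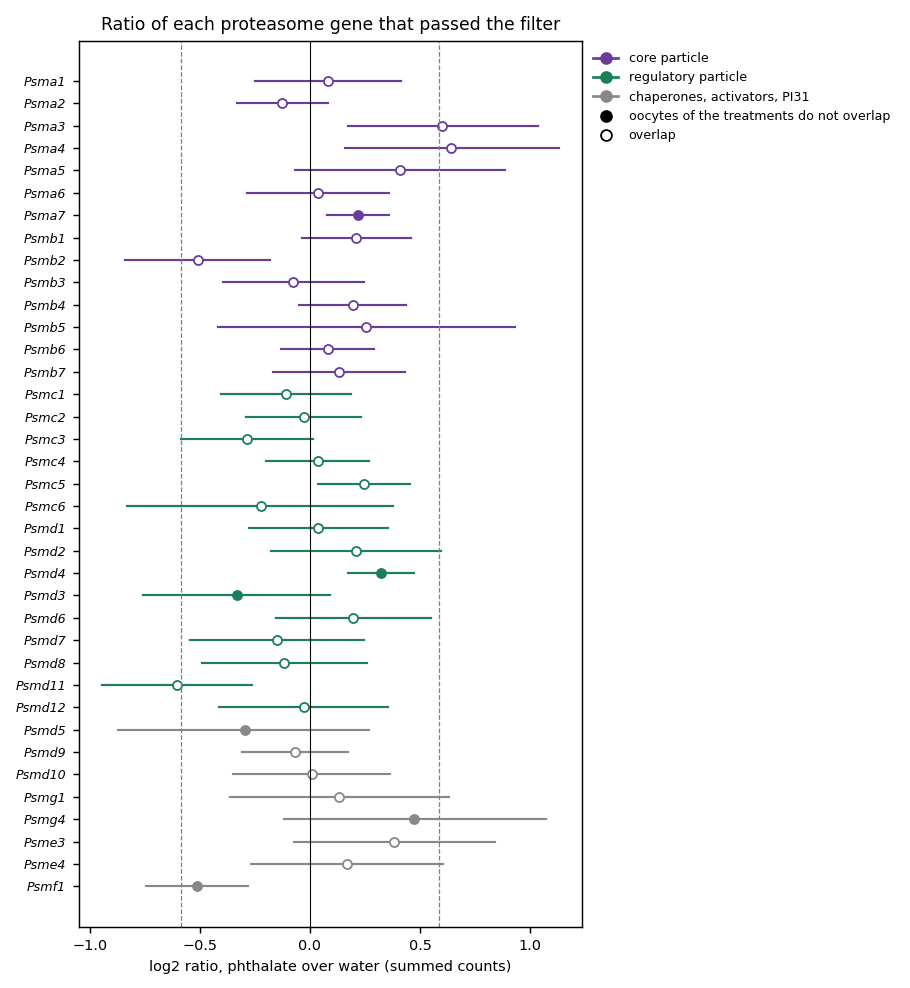
Log2 ratio of phthalate over water from summed counts (horizontal axis) for each of the 37 proteasome genes that passed the filter, with the 95% counting interval as a line and dashed lines at 1.5-fold; purple is the core, green the regulatory particle and grey the chaperones, activators and PI31. Filled points are the 6 genes whose treatment groups do not overlap (Psma7, Psmd4, Psmg4, Psmd3, Psmd5 and Psmf1), all of them within 1.5-fold.

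The genes past 1.5-fold, or without overlap between the groups, are given next; both kinds were singled out after their values were seen. Psmf1 encodes PI31, which inhibits the core in vitro and carries proteasomes along axons. It lies at chr2:151716062-151744199 (GRCm38) and overlaps Tmem74b. It was at 468, 426 and 479.5 CPM with water and 348, 265 and 358 CPM with phthalates. The lowest water oocyte was well above the highest phthalate oocyte, and the spread was 1.12-fold within the water group and 1.35-fold within the phthalate group. The log2 ratio was -0.51, a fold of 0.701, with an interval of -0.74 to -0.28, or -0.84 to -0.19 with counts taken as read pairs. Leaving out 1 oocyte gave values from -0.60 to -0.37.

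Psmd4, the ubiquitin receptor, was at 774, 759 and 811 CPM with water and 931, 1074 and 907 CPM with phthalates, a log2 ratio of 0.32 (0.17 to 0.47). Psma7 was at 949.8, 836 and 963 CPM with water and 1063, 1130.3 and 988 CPM with phthalates, a log2 ratio of 0.22 (0.078 to 0.36). Both groups of oocytes stood close to each other, and for Psma7 they overlapped under library totals without TMM factors. Psmg4 was at 54.0, 50.4 and 49.4 CPM with water and 65.7, 66.3 and 81.7 CPM with phthalates. Its log2 ratio of 0.47 had an interval that included 0 (-0.12 to 1.07), since only 44 and 58 counts entered it.

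Lower in all phthalate oocytes, besides Psmf1, were Psmd3 and Psmd5. Psmd3, a scaffold of the lid, was at 137, 131 and 119.9 CPM with water and 112, 119 and 73.9 CPM with phthalates, a log2 ratio of -0.33 (-0.76 to 0.092). With 1 oocyte left out Psmd3 ran from -0.47 to -0.16, the latter without phthalate oocyte 3. Its nearest oocytes differed by less than 1 CPM, and the groups overlapped under library totals without TMM factors. Psmd5 was at 72.0, 80.6 and 63.5 CPM with water and 61.8, 53.0 and 62.3 CPM with phthalates, a log2 ratio of -0.30 (-0.87 to 0.27). Both intervals included 0.

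Psma4 was at 97.1, 67.2 and 52.9 CPM with water and 100.5, 149 and 81.7 CPM in the phthalate oocytes, a log2 ratio of 0.64 (0.16 to 1.13). The groups overlapped through water oocyte 1 and phthalate oocyte 3. It shrank to 0.34 without phthalate oocyte 2 and to 0.46 without water oocyte 3, both within 1.5-fold. Taken as read pairs, the interval included 0 (-0.047 to 1.35). Psma3 was at 112, 90.7 and 74.0 CPM with water and 46.4, 116 and 261 CPM with phthalates, a log2 ratio of 0.60 (0.17 to 1.03). Its phthalate oocytes differed 5.62-fold among themselves, the widest spread within a group among the proteasome genes that passed. Without phthalate oocyte 3 the log2 ratio was -0.14, so both its size and its direction rested on that oocyte. Without water oocyte 3 it was 0.47, and under library totals without TMM factors 0.584, just under the 1.5-fold limit of 0.585. Taken as read pairs, its interval also included 0 (-0.0094 to 1.23).

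Psmd11, a scaffold of the lid, was at 165, 259 and 236 CPM with water and 96.6, 169 and 167 CPM in the phthalate oocytes. Water oocyte 1 was the lowest of its group and lay among the phthalate oocytes, so the groups overlapped. The log2 ratio was -0.60 (-0.95 to -0.26). It was within 1.5-fold without phthalate oocyte 1 (-0.40), water oocyte 2 (-0.47) or water oocyte 3 (-0.55). In the transcript of Psmd11, 12.6% of the windows are shared with other genes.

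**Figure D4:**
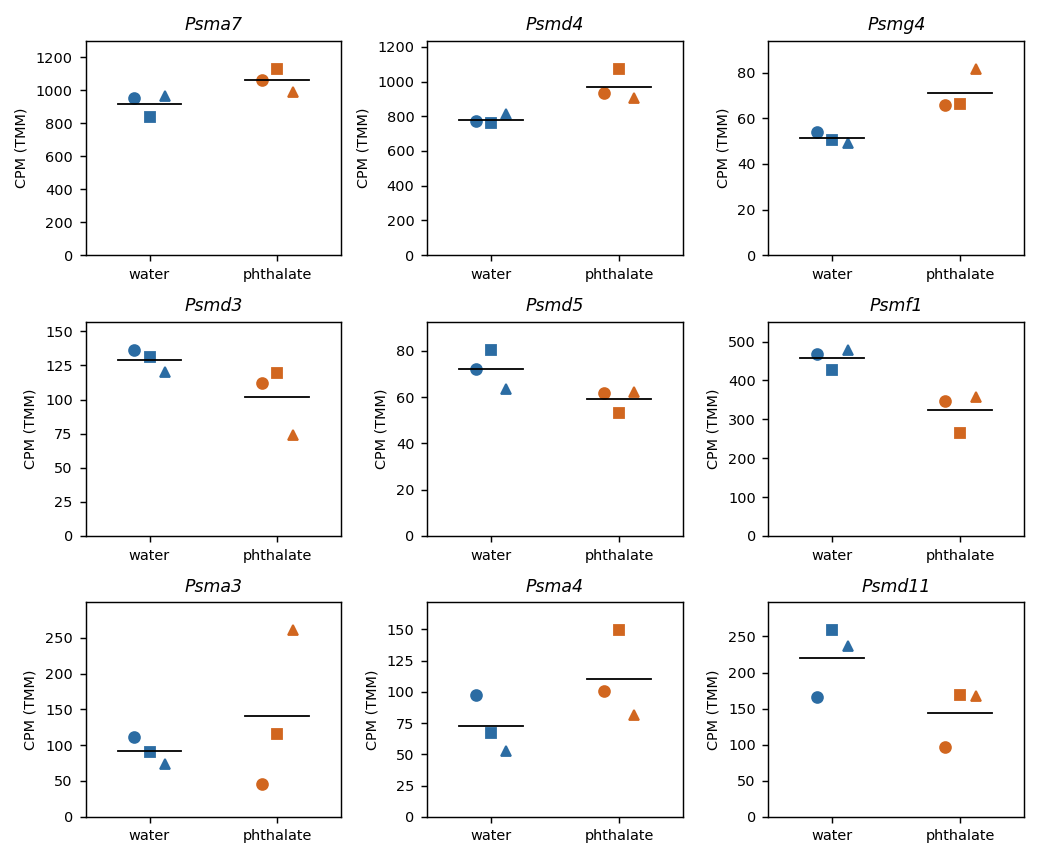
CPM in each oocyte (circle, square and triangle for oocytes 1, 2 and 3) and the mean of each group (line) for the 6 proteasome genes without overlap between the groups and, in the bottom row, the 3 past 1.5-fold. In the bottom row the groups overlap, and Psma3 shows phthalate oocyte 3 at 261 CPM against 46.4 and 116 CPM in the other phthalate oocytes.

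Of the constitutive catalytic genes, Psmb6 had a log2 ratio of 0.080 (-0.13 to 0.29), Psmb7 of 0.13 (-0.17 to 0.43) and Psmb5 of 0.26 (-0.42 to 0.93), and their groups overlapped. With 1 oocyte left out Psmb6 ran from -0.010 to 0.13, Psmb7 from -0.12 to 0.39 and Psmb5 from 0.093 to 0.43. Psmb2, a structural beta subunit, was at 179.9, 296 and 205 CPM with water and 139, 139 and 206 CPM with phthalates, a log2 ratio of -0.51 (-0.84 to -0.18), with overlap through phthalate oocyte 3, and of -0.26 without water oocyte 2. The ATPases ran from -0.29 for Psmc3 to 0.25 for Psmc5. Psmc5 was at 0.0077 without phthalate oocyte 2, and Psmc3 ran from -0.56 to -0.15 with 1 oocyte left out. Of the activators, Psme3 had a log2 ratio of 0.38 (-0.072 to 0.84) and Psme4 of 0.17 (-0.27 to 0.60). With 1 oocyte left out Psme3 ran from 0.12 to 0.79 and Psme4 from -0.079, without phthalate oocyte 2, to 0.36. Within a group, the highest oocyte exceeded the lowest by a median of 1.38-fold over the 37 genes with water and 1.501-fold with phthalates. This is a spread of single oocytes, while the ratios between the groups are of sums over 3 oocytes, so their sizes are not compared.

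Other genes of the pathway were taken from a list of 30 symbols found in the table: regulatory particle subunits with other symbols, proteasome-bound factors, shuttles, the p97 unfoldase, transcription factors of proteasome genes, and ubiquitin and its activating enzymes. Of these, 20 passed the filter, 1 was at least 1.5-fold higher, and none was 1.5-fold lower in the phthalate group; 9 had a ratio above 0 and 11 below, with a median of -0.014. Over all 4644 genes that passed, 6.96% were past 1.5-fold upwards and 8.14% downwards, and 2377 were above 0 and 2267 below, so these counts are near the background. The gene past 1.5-fold was Txnl1, a thioredoxin-like protein that binds the regulatory particle. It had 18, 18 and 4 counts with water and 17, 25 and 27 with phthalates, a log2 ratio of 0.86 (0.28 to 1.46). Scaled to CPM the groups did not overlap, by a margin of about 1 CPM between 64.8 in water oocyte 1 and 65.7 in phthalate oocyte 1, and without water oocyte 3 the log2 ratio was 0.43. Nfe2l1, the factor that induces proteasome genes when the proteasome is inhibited, was at 104, 104 and 91.7 CPM with water and 77.3, 86.2 and 42.8 CPM with phthalates. Its log2 ratio of -0.52 (-1.03 to -0.022) was within 1.5-fold, and on read pairs the interval included 0 (-1.26 to 0.20). It was -0.29 without phthalate oocyte 3 and -0.74 without phthalate oocyte 2. The remaining subunits of the regulatory particle, Adrm1 and Sem1, had log2 ratios of 0.38 and -0.047.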

How the data were processed

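Smart-seq3 libraries of 3 water-injected and 3 phthalate-injected GV oocytes were compared. The deposited table holds raw counts, whole numbers keyed by gene symbol, with 25239 genes besides 92 ERCC spike-ins. Per the submitters' processing notes, cutadapt, Trimmomatic, HISAT2 and DESeq2 were used with the build mm10. The counting tool, annotation, strand setting and handling of molecular identifiers are not given in the sources used here.

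ERCC rows were left out. Genes passed edgeR's filterByExpr (edgeR 4.0.16, R 4.3.3; minimum count 10, minimum total 15), which kept 4644. TMM factors on library totals scaled the CPM. The log2 ratio is that of summed counts with no pseudocount, and its 95% interval is the exact binomial (Clopper-Pearson) one of the phthalate count in both sums. Where a sum was 0, 3 counts stood in for it. The calculation was tested on simulated data. TPM used the median length of a gene's protein-coding transcripts in the GENCODE M21 basic set, which gave lengths for 20437 genes with 94.0% of all counts. Exact windows of 75 bases of the longest such transcript, on either strand, were sought in all GENCODE M21 transcripts. All 48 symbols matched the RefSeq gene table (GRCm38.p6), used for overlaps, and 40 its promoter table. Figures used matplotlib 3.10.9.

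Named were the highest and lowest gene per length in each role, genes past 1.5-fold without overlap, the regulated subunits and the constitutive ones they replace, and pathway genes past 1.5-fold. Genes past 1.5-fold with overlap, genes without overlap within 1.5-fold, Psmb2, Nfe2l1, Adrm1, Sem1, Ubb and the chaperone pairs were named after their values were seen. The genes and lists were chosen with earlier results of these data known. Alternatives were other scalings (plain totals, DESeq2 size factors from version 1.42.0, totals without Rn45s, means of CPM), other filters, a 2-fold limit, each oocyte left out, read pairs, other transcript lengths and other gene sets in the particle ratio.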

Additional observations from a re-analysis of the deposited data

How the results depend on the processing

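No paired analysis was possible because no label ties the replicate numbers of the groups to a shared animal, culture or day, and no result here comes from a test. All 70 values of the summed ratios under the alternatives lay within the spread between oocytes of the main value (1 SD of log2 CPM), and 7 of them changed sign (4 for the assembly chaperones, and 1 each for the beta ring, the activators and all genes together, these 3 without phthalate oocyte 2). The median over proteasome genes that passed changed sign in 2 of 13 settings. The ratio of regulatory to core particle ran from 0.928 to 0.973 with an oocyte left out and was 0.955 without the base chaperones. Leaving out 1 oocyte gave log2 ratios from -0.21 to -0.092 for the lid, 0.093 to 0.24 for the alpha ring, 0.037 to 0.19 for the base, -0.026 to 0.10 for the beta ring and -0.028 to 0.41 for the activators.

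The number of proteasome genes at least 1.5-fold higher (2) was 1 with plain library totals and 0 at a limit of 2-fold, and ranged from 0 to 3 with an oocyte left out. The number at least 1.5-fold lower (1) was 2 with no gene filter and 0 at 2-fold, and ranged from 0 to 3. With no gene filter the TMM factors were also recomputed, and genes with all phthalate oocytes above the water oocytes then numbered 6. With the main factors kept, a setting chosen after seeing the data, they numbered 3, as with the filter, and the genes at least 1.5-fold lower numbered 2. With only genes of a mean count of at least 20 kept, and factors other than the main ones, 3 genes had all phthalate oocytes above and 2 all below. With the main factors they numbered 2 and 2. Genes with all phthalate oocytes above numbered 3 to 8 with an oocyte left out, and those with all below numbered 3 to 6. With fewer oocytes, separation is easier by construction. Shares over all genes under these settings are not given here, and nothing about the proteasome genes is read from these numbers. Of the 6 genes without overlap, 4 remained so with plain library totals and all 6 with DESeq2 size factors. Psma3 had a log2 ratio of -0.14 without phthalate oocyte 3 and of 0.99 without phthalate oocyte 1; the cause was not tested. Of 126 levels per length under other lengths or none, 55 moved by more than the spread between oocytes. Some of the 126 are CPM not divided by length, a different unit from TPM. The number therefore does not measure the dependence on transcript length alone. With the median over all protein-coding transcripts, a setting chosen after seeing the data, 6 genes moved by more than 1.5 times, all upwards: Psma3 had 196 TPM in place of 116, Psmd2 305 in place of 87.4, Psmd9 688 in place of 250.4, Psmd11 373 in place of 154, Psme3 210.5 in place of 71.0 and Psme4 243 in place of 31.7. Psmd11 then stood above Psmd6 in the lid, Psme4 above Psme3, Psmc6 (38.5 TPM) below Psmd5 (39.0 TPM), Psma5 became the lowest alpha gene detected and Psmd1 the lowest base gene outside the ATPases. Genes with under 20 counts per library limit what can be seen, as for Psmd13, Psmd14, Psmg3 and Psme2.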

Other observations

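Further rows of the table begin with Psm without encoding a subunit chosen here. Psmc3ip encodes a partner of the meiotic recombinases and is no part of the proteasome. It had 16, 12 and 8 counts with water and 6, 16 and 10 with phthalates, with overlap between the groups. Psme2b, the copy of Psme2, had 0, 2 and 0 counts with water and 0, 2 and 2 with phthalates.

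Ubb, a polyubiquitin gene, was the most abundant gene of the pathway list. It had 2332, 3276 and 2531 counts with water and 1143, 1852 and 2939 with phthalates. Its log2 ratio was -0.38 (95% counting interval -0.43 to -0.34), with -0.83 when phthalate oocyte 3 was left out and -0.15 when phthalate oocyte 1 was. The groups overlapped through phthalate oocyte 3, the highest of the 6 in CPM.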
